A study of Homo sapiens with 6 samples.

Results

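MOLM-14 is a human acute myeloid leukemia (AML) cell line with monocytic features, known for a KMT2A-MLLT3 fusion gene and an internal tandem duplication of the receptor kinase FLT3. RNA was sequenced from MOLM-14 cells that had received a scrambled short hairpin RNA (shRNA) and from MOLM-14 cells that had received an shRNA against NCAM1, both sampled at 72 h. The comparison covers every gene with a normalized read count of 100 or more in at least 1 of these 2 libraries, which held for 12614 of the 34114 genes counted. A normalized read count is the number of reads on a gene divided by a size factor of the library. Counts below are given with the scrambled library first and the NCAM1 shRNA library second. Ratios are log2 of (knockdown count + 1) over (scrambled count + 1), so that 0 means no difference and a value below 0 means a lower count in the knockdown library. The minimum lay in a dense part of the table: 183 members had their higher count between 100 and 110, and 206 genes between 90 and 100 stayed outside.

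The study also knocked down NCAM1 in 2 other AML lines, NOMO-1 and SKM-1, each beside a scrambled control of its own and at the same time point. There was 1 library per line and condition. The MOLM-14 comparison therefore has no replicate, and no p-value or standard error can be given for it. The 95% intervals below are exact conditional (Clopper-Pearson) intervals on whole reads, and they cover counting error only. The labels do not state the sequence of the hairpin. The deposited column names carry the tag sh59 for the MOLM-14 and NOMO-1 knockdown libraries and sh59a for that of SKM-1, and what the added letter stands for is not stated.

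NCAM1, the neural cell adhesion molecule also called CD56, is an immunoglobulin-family surface protein that binds to itself on neighbouring cells and, in neurons, signals through the kinase FYN and fibroblast growth factor receptors. In blood it marks natural killer cells, and it appears on the blasts of some AML patients. The comparison asks which transcripts differ when a leukemia cell carries less NCAM1 RNA. The level of the protein is not part of these data.

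The 2 MOLM-14 libraries held 41916991 and 43745763 gene-assigned reads, within the range of 41916991 to 47688779 over the 6 libraries. The 13 mitochondrially encoded protein genes took 5.40% of reads in the scrambled and 6.16% in the knockdown library, against 5.40% to 8.30% over all libraries. Of 15 genes chosen to mark a myeloid leukemia line, 14 were at 100 or more, among them PTPRC (22183 and 19019), the pan-leukocyte phosphatase CD45, FLT3 (39095 and 28123) and SPI1 (6109 and 4791), the myeloid transcription factor PU.1. ANPEP (CD13) was the exception at 4.46 and 25.1. The identity list summed to 101570 and 82996.5 normalized counts, and none of its genes was at 0 reads.

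Most markers of other cells were under 100. Of 18 T and natural killer cell markers 2 reached 100, TRAC (1677 and 902) and NKG7 (1242 and 1002), and the whole list summed to 3029 and 2002, with 6 and 5 genes at 0 reads. The T cell antigens CD3G and CD2 were at 0 in both libraries. Of 14 B cell markers 4 reached 100, PAX5 (1194 and 1032), BANK1 (621 and 696), EBF1 (146 and 266) and IGHM. That list summed to 2126 and 2276, and 3 genes were at 0 in each library. Of 9 erythroid markers 2 reached 100 and the list summed to 1800 and 1640.0, with the globin gene HBB at 0 in both libraries. Megakaryocyte markers (1 of 9 at 100) summed to 388 and 326, mast cell and basophil markers (2 of 10) to 2285 and 1952, and epithelial and stromal markers (2 of 12) to 545 and 876. The platelet gene PPBP, the mast cell protease gene CPA3 and the epithelial gene EPCAM were at 0 in both. The keratin genes KRT8 (118 and 191) and KRT18 (236 and 430.1) were the epithelial markers above 100, and both were higher in the knockdown library. The part of these marker differences in the results below was not tested. In bulk RNA, fewer cells of a type and less RNA per cell cannot be told apart.

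NCAM1 (ENSG00000149294) had a normalized count of 6004 in the scrambled and 1896 in the knockdown library. It was 3.17-fold lower with the shRNA (95% counting interval 3.003 to 3.34), a log2 ratio of -1.66. The library labelled as the knockdown was thus the lower of the pair, and the knockdown was partial. In NOMO-1 the counts were 1163 and 312 (log2 ratio -1.89) and in SKM-1 12537 and 101 (-6.94), so the lines also differed in how much of the target was left.

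Most genes differed little. The median log2 ratio of the 12614 genes was -0.0004, the median size of the ratio was 0.14, and 9 in 10 genes lay between -0.55 and 0.43. At least 2-fold higher with the shRNA were 95 genes (0.753%), and at least 2-fold lower were 177 genes (1.40%). At the milder limit of 1.5-fold, 342 genes were higher (2.71%) and 566 lower (4.49%), and 49.9% of all genes had a ratio above 0. The whole counting interval lay beyond 2-fold for 54 of the higher and 95 of the lower genes. The share at 2-fold in either direction was 19.7% among the 203 genes with a mean count under 100, but these are measured only because 1 of their libraries reached 100, so the filter itself raises that share. It was 6.30% between 100 and 300, 2.08% between 300 and 1000 and 0.606% between 1000 and 3000. Above a mean of 10000 it was 0.535%, which was 4 genes, all lower. Any gene named below with 1 of its 2 MOLM-14 counts under 100 is measured only through its other library, so the filter favours its difference. The counts by list below are read against these percentages; the lists were chosen with earlier results of these data known, so they describe and support nothing on their own.

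**Figure D1:**
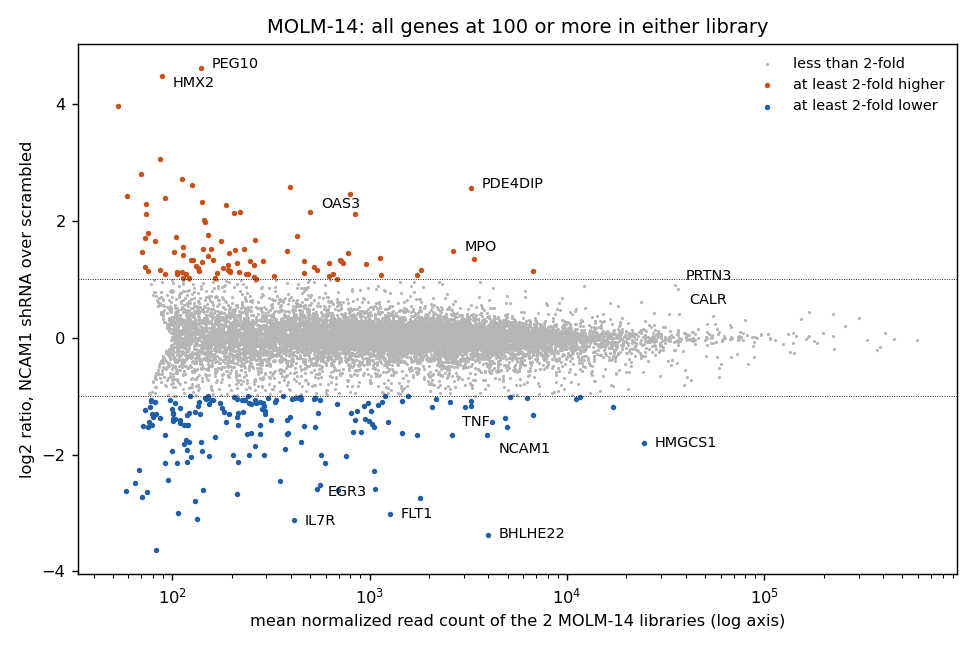
Each point is 1 of the 12614 genes, with its mean normalized count over both MOLM-14 libraries on the x axis (log axis) and its log2 ratio of NCAM1 shRNA over scrambled on the y axis. Genes past 2-fold are coloured, 95 higher and 177 lower, and the spread narrows toward high counts, where HMGCS1 stands at -1.80.

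The lowest ratios included those of a neuronal transcription factor, growth factor and receptor genes, and surface proteins known from macrophages and dendritic cells. BHLHE22, a basic helix-loop-helix transcription factor known from neurons, had counts of 7279 and 704, a log2 ratio of -3.37 and a 10.3-fold lower level (95% counting interval 9.55 to 11.2). IL7R, the receptor chain for interleukin 7, followed at 742 and 84.6 (-3.12, 8.77-fold lower, interval 6.96 to 11.2). GJC1, a gap junction connexin, stood at 239.8 and 27.1 (-3.10). FLT1, a receptor for vascular endothelial growth factor, was 8.17-fold lower at 2259 and 277 (-3.03, interval 7.18 to 9.32). PDGFA, a chain of platelet-derived growth factor, was 6.70-fold lower at 3143 and 469 (-2.74, interval 6.07 to 7.42). HEG1, a transmembrane protein best known from endothelium, had 961 and 166 (-2.53). These genes were chosen by their ratio, so the intervals describe the counts and test nothing.

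Among the macrophage and dendritic cell genes, CD209, the lectin DC-SIGN, had counts of 371 and 57.4 (-2.67). FCER2, the low-affinity IgE receptor CD23, had 597 and 109 (-2.45). FGL2, a fibrinogen-like protein of myeloid cells, had 1836 and 304 (-2.59). SGMS2, which makes sphingomyelin, had few counts in both libraries at 129 and 19.8 (-2.65), as were UBL4B, a ubiquitin-like gene (191 and 23.0; -2.9997), and SESTD1 (123 and 17.7; -2.72). TPSB2, a mast cell tryptase, had 101 and 15.7 (-2.62), and because its reads are shared with the near-identical TPSAB1 this value is uncertain; the mast cell protease gene CPA3 was at 0 reads in both libraries. The transcription factors EGR2 and EGR3 complete the 15 lowest and are described with their family below. A gene known only by a clone name had a lower ratio than BHLHE22 and was passed over.

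The highest ratios mostly started from a very low count. PEG10, an imprinted gene derived from a retrotransposon, had counts of 10.04 and 269, a log2 ratio of 4.61 and a 26.8-fold higher level, but its scrambled count rests on 9 reads and the counting interval runs from 13.9 to 59.4. HMX2, a homeobox transcription factor, rests on 6 reads and had 6.69 and 170.2 (4.48, interval 11.4 to 70.3). ZFP3, a zinc finger gene, rests on 5 reads and had 5.58 and 101 (3.96, interval 7.52 to 57.2). IGHM, the constant part of the immunoglobulin mu chain, had 17.8 and 157 (3.06), while the B cell markers summed to 2126 and 2276. All 4 passed the minimum of 100 through the knockdown library alone, so they had to differ. The same holds for FAP, NOG, NPTX2 and PDYN, which come next. FAP, a surface protease known from activated fibroblasts, had 16.7 and 123 (2.81). NOG, the secreted antagonist of bone morphogenetic proteins, had 28.99 and 195 (2.71). NPTX2, a neuronal pentraxin, had 28.99 and 156 (2.38), and PDYN, the precursor of the dynorphin opioid peptides, 24.5 and 123 (2.28).

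Of the others, PDE4DIP, MSRB3 and AGXT were above 100 in both libraries. PDE4DIP, the centrosome and Golgi protein myomegalin, stood at 945 and 5552, 5.88-fold higher (2.55, interval 5.47 to 6.33). MSRB3, which repairs oxidized methionine, had 244 and 1349 (2.46, interval 4.78 to 6.40). AGXT, an aminotransferase known from liver peroxisomes, had 112 and 675 (2.59, interval 4.90 to 7.55). SLC22A16 and SULT1A1 were under 100 in the scrambled library and so passed the minimum through the knockdown library alone. SLC22A16, a carnitine carrier that also takes up doxorubicin, had 46.8 and 238 (2.32). SULT1A1, a phenol sulfotransferase with close relatives on the same chromosome, had 63.6 and 311 (2.27). IFI44L and RASAL1 are described with the interferon genes.

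**Figure D2:**
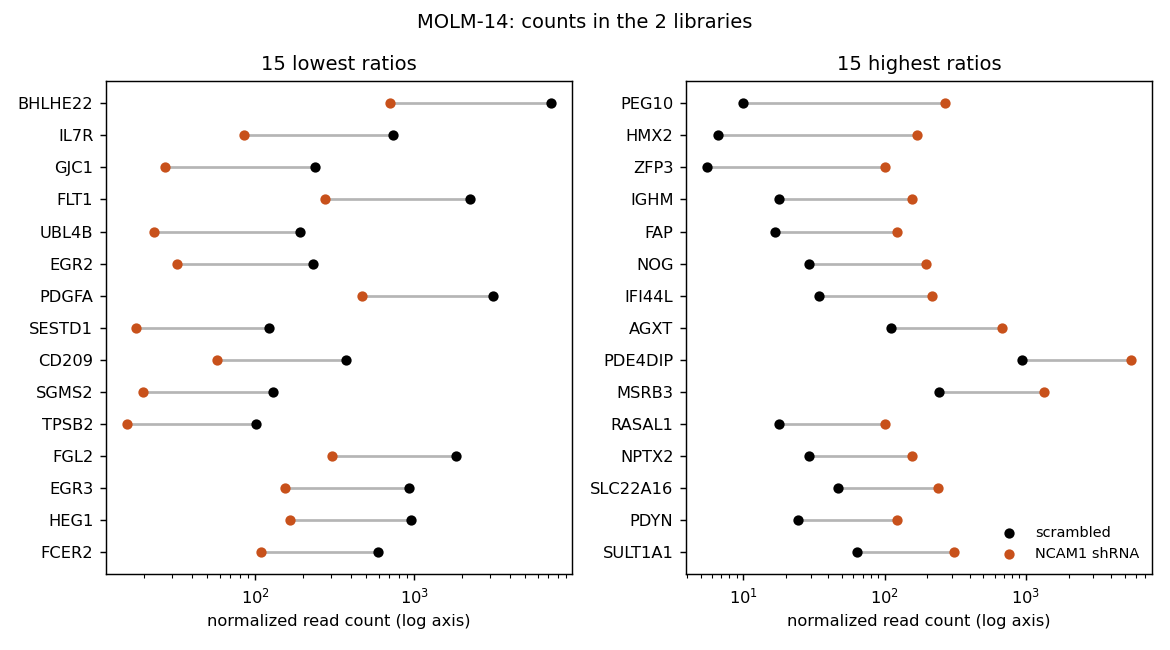
Normalized read counts (log axis) in the scrambled (black) and NCAM1 shRNA (orange) library of MOLM-14 for the 15 genes with the lowest and the 15 with the highest ratio under the naming rule. BHLHE22 stands at 7279 and 704 and PEG10 at 10.04 and 269, and most of the highest ratios start under 100.

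Genes past 1.5-fold were also ranked by the difference in count, which favours long and abundant transcripts. Genes under 1.5-fold were left out, though some differed by more counts, such as ENO1 (-25909) and MT-CO3 (69456). With this filter lipid synthesis genes led the lower side. The 8 largest differences toward a lower count were then HMGCS1, SCD, FASN, TMSB4X, FLNA, FADS2, IRF8 and INSIG1. Of these, 5 belong to sterol or fatty acid synthesis. TMSB4X, the actin-binding thymosin beta 4, had counts of 52722 and 31826 (-0.73), and FLNA, the actin crosslinker filamin A, 49869 and 31385 (-0.67). IRF8, a transcription factor of monocyte and dendritic cell development, had 36218 and 22926 (-0.66). On the higher side the 8 were PRTN3, CALR, ELANE, CHI3L1, EMB, CTSG, PDE4DIP and REEP3, and 3 of these are granule proteases. CHI3L1, a secreted chitinase-like protein, had 8550.0 and 15833 (0.89), EMB, the adhesion protein embigin, 13133 and 19855 (0.60), and REEP3, which shapes the endoplasmic reticulum, 7254 and 11594 (0.68).

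Cholesterol is made from acetyl-CoA in a long chain of enzymes whose genes are switched on together by the transcription factor SREBP-2 when sterols run low. Of 24 measured genes of this pathway 23 were lower in the knockdown library, with a median log2 ratio of -0.79 against -0.0004 over all genes. At the 1.5-fold limit 16 were lower and 0 higher, and 3 of 24 passed 2-fold on the lower side (against 1.40% of all genes). HMGCS1, which makes HMG-CoA at the head of the pathway, had counts of 37988 and 10881 (-1.80, 3.49-fold lower, interval 3.42 to 3.57). ACAT2, which joins acetyl-CoA units, had 8461 and 4121 (-1.04). The later enzymes MSMO1 (7091 and 3611; -0.97), LSS (9516 and 4893; -0.96) and MVD (4795 and 2474; -0.95) lay just under 2-fold. INSIG1, which retains the SREBP machinery in the endoplasmic reticulum, had 26493 and 14410.2 (-0.88), and FDFT1, which commits the chain to sterols, 28966 and 19347 (-0.58). PMVK was the gene of the list with the higher count in the knockdown library (1337 and 1554; 0.22), named here after its value was seen.

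In fatty acid synthesis 14 of 16 measured genes were lower, with a median of -0.58, 8 lower and 1 higher at 1.5-fold, and 3 lower and 1 higher at 2-fold. ACSS2, which turns acetate into acetyl-CoA, had 7372 and 2544 (-1.53, 2.90-fold lower, interval 2.77 to 3.04). PNPLA3, a lipid droplet hydrolase, had 171 and 67.9 (-1.32). The desaturases FADS2 (23909 and 10465; -1.19), FADS1 (9259 and 5223; -0.83) and SCD (72571 and 45564; -0.67) and the fatty acid synthase FASN (49863 and 28569; -0.80) were all lower. ME1, the malic enzyme that supplies NADPH to the pathway, went the other way at 59.1 and 236 (1.98). The 7 measured genes of the oxysterol receptor LXR had a median of -0.056. ABCA1, the cholesterol efflux pump, had 495 and 753 (0.60) and SMPDL3A, a phosphodiesterase, 287 and 205 (-0.48).

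Human promoter sequence was taken from RefSeq (GRCh38.p14, 250 bases before to 50 after each start), which gave a promoter for 9245 of the 12610 gene symbols. The sterol regulatory element was searched as TCACNCCAC on both strands. It stood in 1 of the 18 sterol gene promoters available, that of SREBF2, and in 1.15% of all 27305 promoters.

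Interferon-stimulated genes are antiviral genes switched on when a cell senses interferon. Of 36 measured genes of this group 35 were higher in the knockdown library, with a median log2 ratio of 0.59 against -0.0004 over all genes. At 1.5-fold 18 were higher and 0 lower, and 10 of 36 passed 2-fold (against 0.753% of all genes). IFI44L, an interferon-induced gene of the cytoplasm, had counts of 34.6 and 217 (2.62, 6.28-fold higher, interval 4.29 to 9.48). HERC5, the ligase that attaches ISG15 to proteins, had 75.8 and 335 (2.13, interval 3.39 to 5.83). IFI6, a mitochondrial antiviral protein, had 84.8 and 269 (1.66), and EPSTI1 53.5 and 150.3 (1.47). IFI44L, HERC5, IFI6 and EPSTI1 passed the minimum through the knockdown library alone, so the filter itself raises the share past 2-fold. Among all genes with a mean count of 100 to 300, 6.30% were past 2-fold in either direction. The antiviral poly(ADP-ribose) polymerase gene PARP14 had 4375 and 5446 (0.32) and LY6E, a surface protein of the group, 3908 and 4941 (0.34). MX1, IFI27, IFITM1 and ISG20, also of this group, stayed under 100 in both libraries.

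The genes OAS1, OAS3 and OAS2, whose enzymes make the 2-5A signal that activates RNase L, lie next to each other on chromosome 12. Their counts were 201 and 565 for OAS1 (1.49), 183 and 821 for OAS3 (2.16, 4.49-fold higher, interval 3.79 to 5.34) and 405 and 1019 for OAS2 (1.33). RASAL1, a GTPase-activating protein for Ras, is 2 genes further along and had 17.8 and 100.2 (2.43, interval 3.29 to 10.2). RASAL1 passed the minimum through the knockdown library alone, so it had to differ. DTX1, between OAS2 and RASAL1, had 3.35 and 5.22 and stayed under the minimum. The flanking genes PTPN11 (0.015) and RPL6 (-0.11) on one side and DDX54 (-0.084) and C12orf52 (0.15) on the other differed little. In NOMO-1 the ratios were 0.54 for OAS1, 0.59 for OAS3, -0.64 for OAS2 and -0.25 for RASAL1, and in SKM-1 -2.54, -1.75, -1.66 and 3.05. OAS2 and the neighbours were named after their values were seen.

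The interferon-stimulated response element was searched as GAAANNGAA on both strands. It stood in 20 of the 28 interferon gene promoters available (71.4%), in 8.29% of all 27305 promoters and in 6.83% of the promoters of all measured genes. The windows of the genes with the highest ratios that held it are shown because they carry the letters behind this share, 5′ to 3′ on the gene's strand, all upstream of the start of transcription, with the match in capitals.
IFI44L (chr1:78620345-78620413, plus strand): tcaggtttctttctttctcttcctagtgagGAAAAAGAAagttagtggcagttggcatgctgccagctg
OAS3 (chr12:112938432-112938473, plus strand): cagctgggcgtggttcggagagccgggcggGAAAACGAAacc
HERC5 (chr4:88457016-88457084, plus strand): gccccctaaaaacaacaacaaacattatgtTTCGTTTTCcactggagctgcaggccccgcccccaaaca
IFI6 (chr1:27672247-27672315, minus strand): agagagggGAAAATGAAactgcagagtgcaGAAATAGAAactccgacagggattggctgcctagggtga
EPSTI1 (chr13:42992253-42992321, minus strand): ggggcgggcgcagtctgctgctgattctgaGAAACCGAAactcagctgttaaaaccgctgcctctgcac
The capitals in HERC5 are the element read on the other strand, and the IFI6 window holds 2 matches. Over the whole promoter, IFI6 and HERC5 held 3 matches each, IFI44L and OAS3 2 each and EPSTI1 1. The 20 genes with the element had a median ratio of 0.67 (0.20 to 2.62) and the 8 without it 0.60 (0.021 to 1.49). OAS1 held none in this window.

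**Figure D3:**
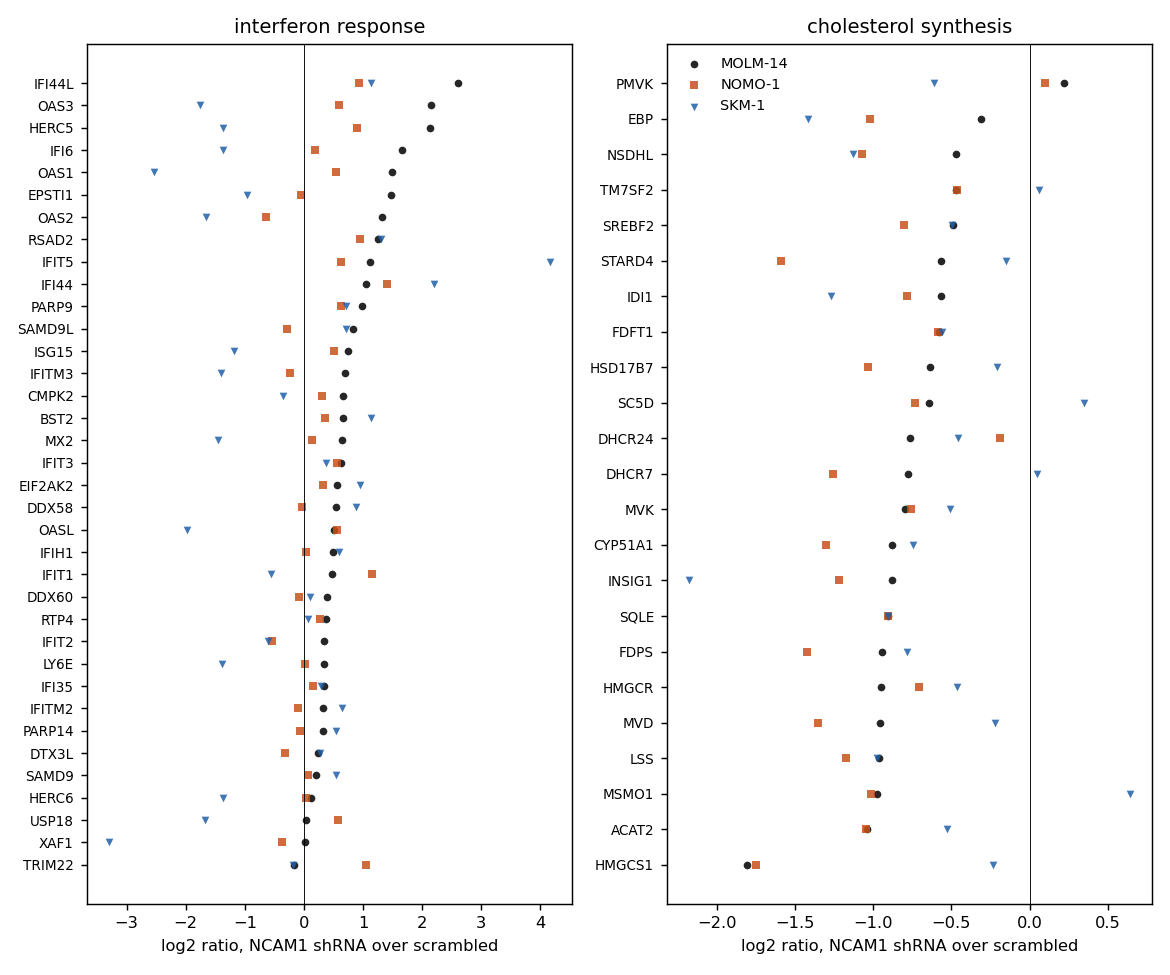
Log2 ratios of NCAM1 shRNA over scrambled in MOLM-14 (black circles), NOMO-1 (orange squares) and SKM-1 (blue triangles) for the 36 interferon response genes and 23 of the 24 cholesterol synthesis genes, 1 library a side. In MOLM-14 the interferon genes run from -0.17 to 2.62 and the sterol genes shown from -1.80 to 0.22, and the interferon genes of SKM-1 scatter on both sides of 0.

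Of 20 measured genes that carry or sense the interferon signal 6 were higher and 14 lower, with a median of -0.13, and the interferon genes IFNB1, IFNA1 and IFNL1 stayed under 100. The receptor chains IFNGR1 (4547 and 3618; -0.33) and IFNGR2 (2757 and 2102; -0.39) and the factor IRF7 (1045 and 764; -0.45) were lower. Genes of MHC class II, which present peptides to helper T cells, were higher in 8 of 8 measured, with a median of 0.61 (0.40 with a minimum count of 50 or of 500) and 3 past 2-fold. These were HLA-DRA (214 and 446; 1.05), HLA-DRB1 (74.7 and 153; 1.03) and HLA-DQB1 (137 and 299.6; 1.121), and HLA alleles share reads, so these values are uncertain. CIITA, the master regulator of the class II genes, had 345 and 614 (0.83), and CD74, the invariant chain, 6884 and 9075 (0.40).

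Growth factor signals reach the nucleus through MAP kinases, which switch on immediate early genes such as EGR1 and FOS and feedback phosphatases such as DUSP6. All 14 measured MAP kinase output genes were lower in the knockdown library, with a median of -0.53, 6 past 1.5-fold and 2 past 2-fold. PHLDA1 had counts of 1509 and 544 (-1.47, 2.77-fold lower, interval 2.51 to 3.08), and the phosphatase DUSP4 379 and 175 (-1.11). The feedback inhibitors SPRY2 (2847 and 1814; -0.65) and DUSP6 (4249.9 and 2904; -0.55), the factor ETV5 (3032 and 1884; -0.69) and cyclin D1, CCND1 (522 and 332; -0.65), differed less.

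All 13 measured genes of the EGR, NR4A and KLF list were lower as well, with a median of -0.67, 8 past 1.5-fold and 4 past 2-fold. EGR2 had counts of 229.7 and 32.4 (-2.79, 7.10-fold lower, interval 4.85 to 10.7), EGR3 926 and 153 (-2.58, interval 5.06 to 7.24) and EGR1 2892 and 1264 (-1.19, interval 2.14 to 2.45). KLF2, a factor of quiescence and of vessel and lymphocyte biology, had 972 and 220.3 (-2.14), and the orphan nuclear receptor NR4A1 509 and 278 (-0.87). SRF, which drives many immediate early genes, had 4574 and 3952 (-0.21). Of 10 AP-1 factors 9 were lower, with a median of -0.45, from FOSB (107 and 50.1; -1.08) through JUN (516 and 279; -0.89) and FOS (2573 and 1566; -0.72) to JUND (18701 and 11812; -0.66). The cAMP response element, searched as TGACGTCA on both strands, stood in 0 of the 10 EGR and KLF promoters available and in 1.98% of all promoters.

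The NF-kB pathway relays inflammatory signals to cytokine genes. Of 21 measured genes 18 were lower, with a median of -0.37, 7 past 1.5-fold and 4 past 2-fold. TNF, the tumour necrosis factor gene, had counts of 3963 and 1249.6 (-1.66, 3.17-fold lower, interval 2.97 to 3.39). TRAF1, an adaptor of TNF receptors, had 1222 and 513 (-1.25), LTB, lymphotoxin beta, 212 and 96.0 (-1.13) and IER3 591 and 293 (-1.01). ICAM1, an adhesion receptor, had 1626 and 847 (-0.94), CD83, a dendritic cell surface protein, 1522 and 798 (-0.93), and the inhibitor TNFAIP3 (A20) 7173 and 4393 (-0.71). Among 11 measured chemokine genes and receptors 9 were lower, with a median of -0.37. IL8, the neutrophil attractant, had 323 and 134 (-1.27) and CCL5 7367 and 4181 (-0.82). CCR7, the receptor that guides cells to lymph nodes, went the other way at 73.6 and 212 (1.51).

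JAK and STAT5 form the path downstream of FLT3 and cytokine receptors. The list of their outputs, which also counts the receptor FLT3 itself (-0.48), was lower in 11 of 14 measured genes, with a median of -0.18. PIM1, a survival kinase, had counts of 4554 and 2016 (-1.18, 2.26-fold lower, interval 2.14 to 2.39), while SOCS2, a feedback inhibitor, had 13694 and 15969.8 (0.22). Of 14 TGF-beta and WNT genes 12 were lower, with a median of -0.15 (-0.33 to -0.087 over the alternatives), and the receptor chain TGFBR1 had 7390.2 and 3726 (-0.99). Among the genes tied to NCAM1 itself, 11 of 13 were lower, NCAM1 included, with a median of -0.31. FYN, the kinase that NCAM1 engages, had 1928 and 1062 (-0.86), the matrix protein agrin, AGRN, 7889 and 4653 (-0.76), and beta spectrin, SPTBN1, 7777 and 4927 (-0.66). NCAM2, the closest relative of NCAM1, was higher at 1145 and 2115 (0.88).

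Glycolysis turns glucose into lactate, and hypoxia-inducible factors raise its genes together with VEGFA and CA9. Of 32 measured genes 28 were lower, with a median of -0.36, 7 past 1.5-fold and 2 past 2-fold. CA9, carbonic anhydrase 9, had counts of 423 and 135 (-1.64, 3.14-fold lower, interval 2.56 to 3.86), and the enolase ENO2 2915 and 1412 (-1.04). VEGFA, the ligand of FLT1, had 19229 and 10202 (-0.91), so ligand and receptor were both lower. ALDOC (6157 and 3428; -0.84), PFKFB4 (4280.0 and 2596; -0.72) and hexokinase 2, HK2 (10674 and 6852; -0.64), followed, while the abundant GAPDH (145946 and 123418; -0.24) and ENO1 (153509 and 127600.0; -0.27) differed by less.

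The factor ATF4 drives amino acid and serine-folate genes under amino acid shortage. Of its 24 measured targets and partners 23 were lower, with a median of -0.44, and 4 passed 1.5-fold and 0 passed 2-fold. MTHFD2, a mitochondrial folate enzyme, had 14126 and 7199 (-0.97), CTH, which makes cysteine, 795 and 426 (-0.90), and the pseudokinase TRIB3 4957 and 2695 (-0.88). SLC7A5, a leucine carrier, had 21420.2 and 14112 (-0.60), PSAT1 of serine synthesis 16048 and 10761 (-0.58) and ATF4 itself 29236 and 24645 (-0.25). The C/EBP-ATF response element, searched as TGATGNAA on both strands, stood in 6 of 20 promoters of the list, in 3.67% of all promoters and in 1.66% of those of all measured genes. The windows, with the match in capitals, of 4 of these 6 genes are shown so that the sites can be compared.
CHAC1 (chr15:40953232-40953299, plus strand): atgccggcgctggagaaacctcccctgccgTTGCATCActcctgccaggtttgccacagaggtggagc
ASNS (chr7:97872439-97872506, minus strand): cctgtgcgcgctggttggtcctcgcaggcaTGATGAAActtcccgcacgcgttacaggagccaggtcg
ATF3 (chr1:212565186-212565253, plus strand): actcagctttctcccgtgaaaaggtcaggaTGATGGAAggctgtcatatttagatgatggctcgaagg
MTHFD1L (chr6:150866327-150866394, plus strand): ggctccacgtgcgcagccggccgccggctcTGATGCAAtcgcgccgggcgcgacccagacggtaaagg
The capitals in CHAC1 are the element read on the other strand. The 6 genes with the element had a median ratio of -0.49 and the 14 without it -0.41. The hypoxia core NACGTG, which also takes in the MYC E-box CACGTG, stood in 13 of 28 promoters of the glycolysis and hypoxia list (46.4%), in 21.6% of all promoters and in 27.3% of those of all measured genes.

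Primary granules store the proteases and peroxidase that promyelocytes and neutrophils use against microbes. Of 15 measured granule genes 12 were higher in the knockdown library, with a median of 0.31, 4 higher past 1.5-fold and 2 past 2-fold. MPO, myeloperoxidase, had counts of 1398 and 3922 (1.49, 2.80-fold higher, interval 2.63 to 2.99), CTSG, cathepsin G, 4186 and 9256 (1.14, interval 2.13 to 2.30), PRTN3, proteinase 3, 24721 and 46043 (0.90) and ELANE, neutrophil elastase, 18712 and 28666 (0.62). LYZ, the lysozyme gene, which monocytes keep expressing, was lower at 6865 and 3407 (-1.01, 2.01-fold lower), as was CST7, a cysteine protease inhibitor (1234 and 860.2; -0.52).

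The list of monocyte receptors, which also holds the proteoglycan gene VCAN, was mixed. Of 16 measured genes 10 were lower and 6 higher, with a median of -0.29, and both genes past 2-fold were lower. Over all genes 49.9% had a ratio above 0, so the split of signs lay near that share. CD36, a scavenger receptor, had 249 and 60.5 (-2.02, 4.11-fold lower, interval 3.06 to 5.58), and VCAN, a matrix proteoglycan made by classical monocytes, 700.3 and 203 (-1.78, interval 2.94 to 4.08). LILRB4, an inhibitory receptor, had 3629 and 2226 (-0.71) and the lipoprotein sensor TLR2 1640.4 and 1097 (-0.58). Among the 6 higher genes, LILRB2 had 60.2 and 100.2 (0.73) and passed the minimum through the knockdown library alone. CSF3R had 8890 and 10447.5 (0.23), and SIRPA was nearly level at 6681 and 6694 (0.0027). The monocyte genes CD14, CD163 and CD68 were under 100 in both libraries. Of 19 myeloid transcription factors 14 were lower, with a median of -0.30 (-0.19 with a minimum of 500), from EGR2 and EGR1, which the EGR list holds too, to RUNX3 (3569 and 2526; -0.50) and SPI1 (-0.35). S100P, a calcium-binding protein, had 393 and 97.1 (-2.004), the lowest of 8 secondary granule and S100 genes, whose median was -0.050 and ranged from -0.49 to 0.023 over the alternatives. Of adhesion genes 10 of 17 were lower, with a median of -0.040 that was above 0 with quantile scaling: ITGAX (CD11c) had 4935 and 3262 (-0.60) and ITGAM (CD11b) 651 and 1144 (0.81).

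**Figure D4:**
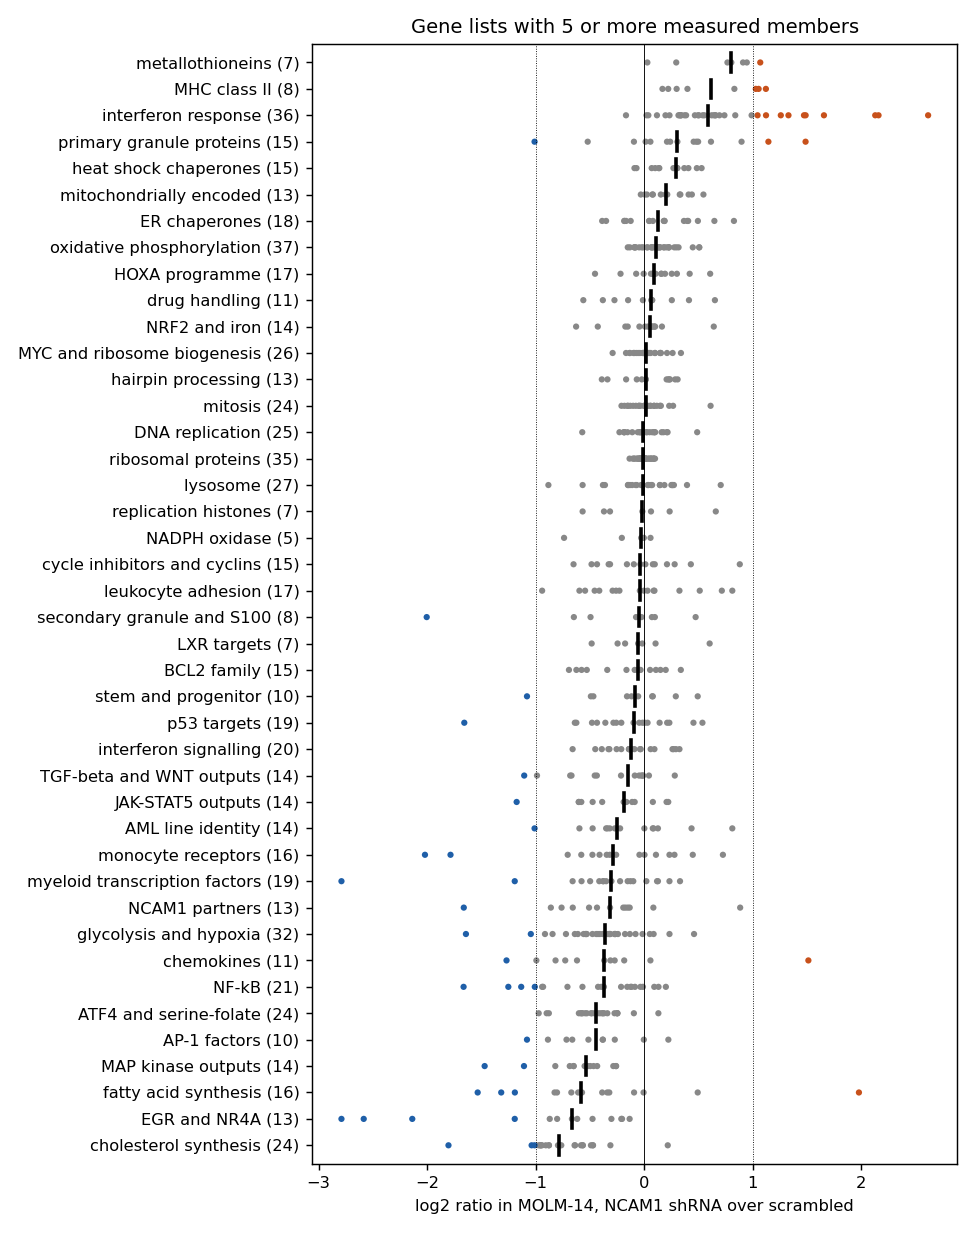
Log2 ratios in MOLM-14 of every measured gene of each list with 5 or more measured members, numbers in brackets; black bars are medians, coloured points lie past 2-fold and dotted lines mark 2-fold. Metallothioneins have the highest median (0.80) and cholesterol synthesis the lowest (-0.79), and ribosomal proteins, DNA replication and mitosis stay close to 0.

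The metallothionein list holds these zinc- and copper-binding proteins and also other genes, among them the zinc exporter SLC30A1. It was higher in 7 of 7 measured genes, with a median of 0.80 and 5 past 1.5-fold, all of them metallothioneins. MT1X had counts of 737 and 1548 (1.07), MT1G 1534 and 2956 (0.95), MT1E 1611 and 3030.5 (0.91) and MT2A 4456 and 7775 (0.80), and since these genes are near copies of each other their single values are uncertain. SLC30A1, counted among the 7 and induced by the same factor, had 4251 and 5216 (0.30). Heat shock chaperones were higher in 13 of 15, with a median of 0.30 and 0 past 1.5-fold, led by BAG3 (487 and 704; 0.53) and HSPE1 (558 and 781; 0.49). Chaperones of the endoplasmic reticulum were higher in 12 of 18, with a median of 0.13 (0.080 with a minimum of 500): CALR, calreticulin, had 26306 and 46665 (0.83) and SDF2L1 336 and 526 (0.65), while HERPUD1 had 3376 and 2581 (-0.39). Of the mitochondrially encoded genes 12 of 13 were higher, with a median of 0.20 (0.12 after a correction for transcript length and GC content), from MT-ATP8 (14793 and 21596; 0.55) to MT-CO1 (602935 and 590008; -0.031). Nuclear genes of oxidative phosphorylation were higher in 28 of 37, with a median of 0.11 (0.073 after that correction).

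Lists on growth and division had medians close to 0. The 35 ribosomal protein genes had a median of -0.0097, which was above 0 with scaling by total reads or quantiles, and all lay between -0.13 and 0.100. DNA replication (25 genes, median -0.0084, likewise above 0 with those scalings), mitosis (24, 0.014) and MYC and ribosome biogenesis (26, 0.015) held 0 genes past 2-fold. RRM2, a ribonucleotide reductase subunit, stood apart among the replication genes at 10955 and 7375 (-0.57), CDKN3, a phosphatase, among the mitosis genes at 778 and 1190.1 (0.61), and MYC itself had 30769 and 25149 (-0.29). Medians were also close to 0 for lysosome genes (27 measured, -0.011), NADPH oxidase (5, -0.028), replication histones (7, -0.017), cyclins and cycle inhibitors (15, -0.035) and NRF2 and iron genes (14, 0.052), and some of these signs turned with another scaling. TFRC, the transferrin receptor, had 21568 and 13960.3 (-0.63), NCF1, a subunit of the oxidase with near-identical pseudogenes, 3350.0 and 2007 (-0.74) and NQO1, a quinone reductase, 319 and 498 (0.64). The KMT2A fusion keeps HOXA genes and their cofactors on. The list of these genes, which also holds DOT1L and PSIP1 (-0.22), was higher in 13 of 17 with a median of 0.088. HOXA6 had 178 and 272 (0.61), HOXA5 744 and 995 (0.42) and DOT1L, the methyltransferase recruited by the fusion, 11365 and 8300.2 (-0.45). Stem and progenitor genes (10 measured, median -0.086) ranged from CLEC12A (107 and 50.1; -1.08) to BMI1 (9224 and 12982; 0.49).

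Survival and drug genes showed small and mixed differences. Of 15 BCL2 family genes 10 were lower, with a median of -0.058. BCL2, the target of venetoclax, had counts of 11887 and 7350.2 (-0.69, interval 1.57 to 1.67), the p53-induced killer BBC3 1015 and 658 (-0.63), PMAIP1 2099 and 1454 (-0.53) and MCL1 15591 and 13922 (-0.16). Targets of p53 (19 measured) had a median of -0.098, with GDF15 the lowest at 141 and 43.8 (-1.66) and CDKN1A, the cell cycle brake p21, at 13672 and 10113 (-0.43). CDKN1C, another brake, had 129 and 239 (0.88). Genes that handle antileukemic drugs (11 measured) had a median of 0.065: SLC29A2, a nucleoside carrier, had 2998 and 2031 (-0.56), SAMHD1, which degrades cytarabine triphosphate, 6886 and 5287 (-0.38), and GSTP1, a glutathione transferase, 3120.2 and 4902 (0.65). The efflux pump genes ABCB1 and ABCG2 stayed under 100. The 13 genes that process hairpin RNA had a median of 0.015 and lay between -0.39 for AGO2 (3264 and 2489.7) and 0.31 for AGO1 (2296 and 2843).

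The median size of the ratio was 0.14 in MOLM-14, against 0.31 for NOMO-1 and 0.58 for SKM-1. In NOMO-1 273 of 13278 genes were at least 2-fold higher (2.06%) and 751 at least 2-fold lower (5.66%). In SKM-1 1884 of 13510 genes were higher (13.9%) and 2008 lower (14.9%). Across genes at 100 or more in both lines, the correlation of the MOLM-14 with the NOMO-1 ratios was 0.31 by Pearson and 0.35 by Spearman over 11823 genes, and 63.5% shared their sign. Against SKM-1 the values were -0.045 and 0.013 over 11838 genes, with 50.8% of the same sign. These are descriptions across genes, which are not independent replicates, and each line was set against its own control library.

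Of the 177 genes lower in MOLM-14, 119 had a ratio below 0 in NOMO-1, and 50 were also at least 2-fold lower there with a count of 100 or more, which is 28.2% of the MOLM-14 list and 6.66% of the NOMO-1 list. In SKM-1 65 had a ratio below 0 and 104 above, and 14 passed 2-fold on the lower side at a count of 100 or more (7.91% of the MOLM-14 list and 0.697% of the SKM-1 list). Of the 95 genes higher in MOLM-14, 7 were shared with NOMO-1 on these terms (7.37% and 2.56% of the lists). With SKM-1 it was 19 of the same 95 genes, a larger share of the MOLM-14 list, and 1.01% of the SKM-1 list. Among all genes at 100 or more, 13.9% were at least 2-fold higher in SKM-1, against 2.06% in NOMO-1. The signs of the 95 split 53 above 0 to 36 below in NOMO-1 and 44 to 46 in SKM-1. At any count, the SKM-1 ratio was past 2-fold the opposite way for 36 of the 95 higher genes and the same way for 31. For the 177 lower genes it was opposite for 74 and the same for 29. In NOMO-1 the opposite way held for 10 of the higher and 10 of the lower genes, against 13 and 65 the same way. Genes were also ranked by the smaller of their MOLM-14 and NOMO-1 ratios, whatever their NOMO-1 count. The first 8 of the lower genes were FLT1 (NOMO-1 -2.73), OCSTAMP, a fusion protein of osteoclasts (MOLM-14 -2.28, NOMO-1 -2.89), XIRP1, an actin-binding protein of muscle (-2.05 and -3.25), TPSB2 (-2.02), EGR3 (-1.99), FAM115C (-1.79 and -2.96), DUSP8, a MAP kinase phosphatase (-1.78 and -2.88), and HMGCS1 (-1.75). Of these, XIRP1 (8.50 and 0) and FAM115C (85.01 and 10.04) were under 100 in NOMO-1, and the XIRP1 ratio there rests on 9 reads and the pseudocount. The first 8 of the higher genes were PDYN (NOMO-1 1.71), FAP (1.64), PGBD5 (MOLM-14 1.71, NOMO-1 1.64), ZFP3 (1.33), MAP2K6, a kinase upstream of p38 (1.33 and 1.58), ADAM28, a surface protease (1.32 and 3.01), SHISA2 (1.27 and 1.47) and RASGRP3, an activator of Ras (1.13 and 1.49). Of these, FAP (2.83 and 10.9), PGBD5 (15.1 and 49.3) and ZFP3 (20.8 and 53.8) were under 100 in NOMO-1.

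Of the 95 genes higher in MOLM-14, 9 were at least 2-fold higher in all 3 lines. Of the 177 lower genes, 19 were at least 2-fold lower in all 3. Both counts take in genes under 100 in the other lines. Among genes at 100 or more, 13.9% were at least 2-fold higher in SKM-1 and 14.9% lower. In NOMO-1 these shares were 2.06% and 5.66%. Whether the overlap exceeds what such shares give was not tested. The higher genes of the overlap were ADAM28, FAP, IFI44, LINC00639, PDYN, PGBD5, RASGRP3, SHISA2 and ZFP3. ADAM28 had MOLM-14 counts of 142 and 355, NOMO-1 counts of 296 and 2388 and SKM-1 counts of 280.4 and 2599. RASGRP3 had 70.3 and 154, 70.8 and 201 and 61.0 and 1857. The lower genes of the overlap included NCAM1, EGR3, PDGFA, DUSP8, CA9, ENO2 and FOSB, but several rest on few reads in SKM-1. The SKM-1 counts were 5.08 and 0 for EGR3, 3.05 and 0.918 for PDGFA and 1.02 and 0 for CA9, so CA9 had 1 read against 0 there and its direction in SKM-1 cannot be read. Among the higher genes, PDYN (0 and 2.75) and FAP (2.03 and 11.02) had similarly few. Since each pair is 1 library a side, these are counts of genes and no test.

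**Figure D5:**
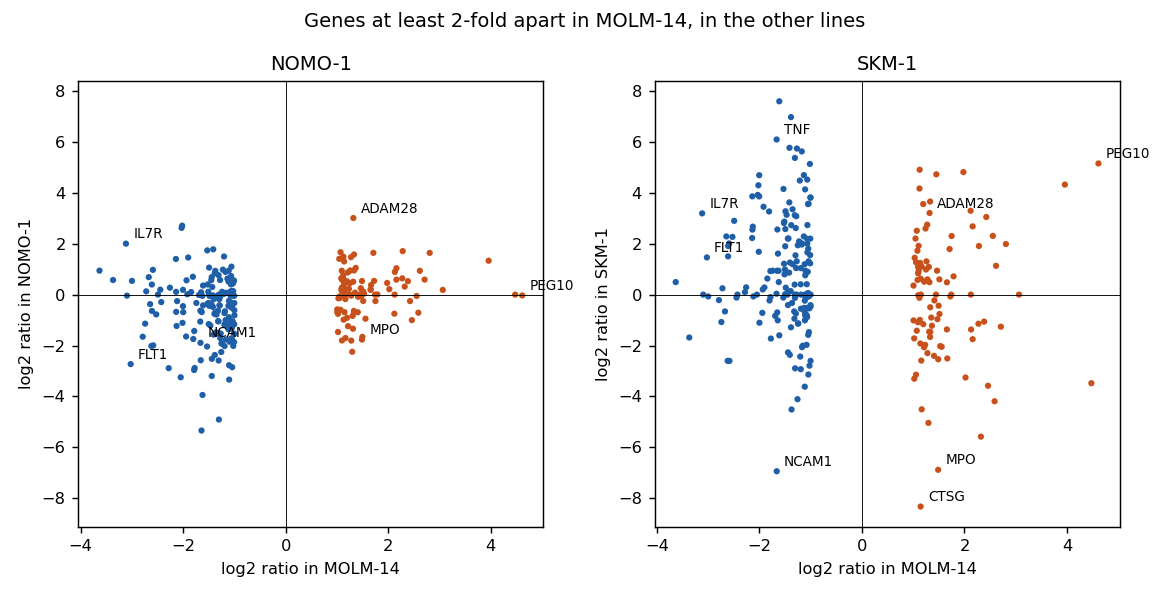
Log2 ratio in MOLM-14 (x axis) against that in NOMO-1 (left) and SKM-1 (right) for the 95 genes at least 2-fold higher (orange) and the 177 at least 2-fold lower (blue) in MOLM-14. Of the lower genes 119 lie below 0 in NOMO-1 and 65 in SKM-1.

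By list, cholesterol synthesis was lower in 23 of 24 genes in NOMO-1 (median -1.02) and in 19 of 24 in SKM-1 (-0.50). Glycolysis and hypoxia was lower in 30 of 32 (-0.86) and 26 of 32 (-0.83), with CA9 at -5.34 in NOMO-1. All 14 MAP kinase outputs were lower in NOMO-1 (-0.71), against 5 of them in SKM-1 (0.65). For NF-kB genes it was 14 of 21 in NOMO-1 (-0.42) and 2 of 21 in SKM-1 (1.16). TNF itself was at 1479 and 955 in NOMO-1 (-0.63) and 7.11 and 554 in SKM-1 (6.10). The interferon response was higher in 25 of 36 in NOMO-1 (0.23) and in 18 of 36 in SKM-1 (-0.061). Primary granule genes were lower in 13 of 15 in NOMO-1 (-0.78) and in 12 of 15 in SKM-1 (-4.14), where MPO had 728824 and 6166 (-6.88). ATF4 genes were higher in 13 of 24 in NOMO-1 (0.050) and lower in 18 of 24 in SKM-1 (-0.37).

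Whether MOLM-14 differs from the other lines in any gene was asked with a fit on all 6 libraries that had terms for the line, the knockdown and the knockdown in MOLM-14, added after the data had been seen. With edgeR's quasi-likelihood test it called 0 of 12614 genes after Benjamini-Hochberg adjustment, the smallest adjusted p was 1, and 123 genes had an unadjusted p under 0.05. With limma it called 0 genes, the smallest adjusted p was 0.9996, and 90 genes had an unadjusted p under 0.05. The fit had 1 residual degree of freedom. Its error term was the difference between the NOMO-1 and SKM-1 responses, so it could not settle whether MOLM-14 differs. The differences between lines given here are therefore values of single pairs of libraries, and none of them was shown to be a difference between the lines.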

How the data were processed

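Trizol-extracted RNA of 3 AML lines, each with a scrambled or an NCAM1 shRNA, was sequenced, 1 library per line and condition. For the signal values, as deposited, the authors had divided each library's read counts per gene by its size factor. The deposited log2 values are the authors' own transformation of the counts, used here as an alternative; no source used here names the method. The submitters' processing notes name the build hg19, the aligner STAR, the counter HTSeq 0.6.1p1, DESeq2 1.12.4 and bcl2fastq 1.8.4, with no settings. Strand handling and the gene annotation are not known from them, so overlapping and antisense genes, and near-identical copies (TPSB2, metallothioneins, HLA genes), are uncertain.

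Each normalized column was divided by its smallest value above 0, which gave whole reads for 100% of values (tolerance 0.001) and 41916991 to 47688779 reads per library. With 1 library a side a count model on MOLM-14 alone has no residual degrees of freedom, so ratios used a pseudocount of 1 and exact 95% intervals on reads, which cover counting error only. The pseudocount makes the log2 ratios of low genes smaller in size, and the 2-fold and 1.5-fold limits were set on these ratios. The folds printed for single genes and their intervals use no pseudocount, so for low genes they exceed the log2 ratio beside them. The members and the 48 gene lists (917 of 942 entries found) were chosen with earlier results of these data known. The text names NCAM1, the 15 highest and 15 lowest ratios (passing over pseudogenes, genes named only by a clone, and X-inactivation and Y-linked genes), the 8 largest differences in count each way among genes past 1.5-fold, up to 6 genes per list by ratio and 2 by level, and 8 genes per direction shared with NOMO-1; others are said to be chosen after their values were seen, or mark another cell type. Alternatives changed the pseudocount, scaling, values, minimum and fold limit. The fit over 6 libraries used edgeR 4.0.16 and limma 3.58.1 in R 4.3.3; other steps used Python 3.11.15 with pandas 2.3.3 and scipy 1.17.1, tested on simulated data. Gene types, lengths and GC content came from GENCODE 29 (12387 members matched). Promoters are of GRCh38.p14, another build than that of the files, and were joined by symbol only. A few list genes are counted in their lists and not reported here by name.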

Additional observations from a re-analysis of the deposited data

Results flagged for a closer look

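Several results pointed one way in MOLM-14 and clearly the other way in another line. Each is 1 library a side, and the differences were not tested gene by gene beyond the fit over 6 libraries. The error term of that fit was the difference between the NOMO-1 and SKM-1 responses, so it could not settle them. The metallothionein list had a median log2 ratio of 0.80 in MOLM-14 and -1.22 in SKM-1. The MAP kinase output list had a median of -0.53 in MOLM-14 and 0.65 in SKM-1.

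IL7R had a ratio of -3.12 in MOLM-14, with 2.003 in NOMO-1 and 3.19 in SKM-1, where its counts were 18.3 and 175. The other genes listed here with a low ratio in MOLM-14 had a high one in SKM-1. FGL2 was at -2.59 and 2.01, HEG1 at -2.53 and 2.27, and SGMS2 at -2.65 and 2.29.

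Among genes higher in MOLM-14, CTSG had 1.14 there and -8.33 in SKM-1, where its counts were 3566 and 10.1. SLC22A16 had 2.32 and -5.58 (SKM-1 counts 355 and 6.43), and MSRB3 2.46 and -3.58 (5883 and 490.3). AGXT had 2.59 and -4.19, and HMX2 4.48 and -3.48. The SKM-1 counts of these last 2 were 17.3 and 0 for AGXT and 10.2 and 0 for HMX2, so their SKM-1 ratios rest on few reads and on the pseudocount.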

How the results depend on the processing

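The counts of genes past 2-fold moved with the fold limit, the minimum count and the authors' transformation. Against 95 higher and 177 lower genes, the authors' log2 values gave 53 and 93, a minimum of 20 gave 303 and 448, of 50 gave 160 and 269, and of 500 gave 27 and 71. A minimum of 100 on the mean of all 6 libraries gave 244 and 308, since it lets in genes that are low in MOLM-14. A limit of 1.5-fold gave 342 and 566, and asking that the whole counting interval lie beyond 2-fold gave 54 and 95. Pseudocounts of 0.5 and 8, scaling by total reads, TMM or quantiles, and a minimum on the mean of the pair left both counts within 1.5 times, as did a correction for transcript length and GC content chosen after seeing the data. NCAM1 had -1.50 with the authors' log2 values. Of 344 other genes under the naming rule, 136 moved outside their counting interval with those values. Quantile scaling moved 94, total reads 60 and the length and GC correction 47. All 344 stayed inside with TMM and with both pseudocounts. The medians of 2 marker lists reversed: B cell markers (0.51) to -0.023 at a minimum of 500, and mast cell and basophil markers (-1.39) to 0.73 with the minimum on 6 libraries; the genes measured differ under both. Other list medians that turned sign lay near 0 or rested on 1 or 2 genes, and medians smaller than 0.1 often moved by over 1.5 times. Scaling shifted the median of all genes by at most 0.034. Ratios correlated with transcript length (Spearman -0.16 over 12387 genes) and GC content (-0.10), and the part of these in the list results was not tested beyond the correction.

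Without replicates, the spread between cultures is unknown, and depth limits genes under 100 most. Leaving out a replicate could not be done with 1 library a side. No paired analysis was possible because the MOLM-14 comparison holds 1 library per condition; the fit over 6 libraries had the line as a block.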

Other observations

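Further genes past 2-fold in MOLM-14, all chosen after their values were seen, belong to no list above. MPEG1, a pore-forming protein of macrophages, had counts of 1224 and 299 in the scrambled and the knockdown library (-2.03), with ratios of 2.62 in NOMO-1 and 3.92 in SKM-1. SPP1, the secreted protein osteopontin, had 1369 and 524 (-1.38), and FGR, a SRC family kinase of myeloid cells, 1228 and 459 (-1.42). OSCAR, an osteoclast-associated receptor, had 241 and 111 (-1.12) and IL4I1, an amino acid oxidase of antigen-presenting cells, 379 and 121 (-1.64).

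Abundant genes on the lower side included MMP14, a membrane-bound matrix metalloproteinase (15025 and 7254; -1.05), DUSP7, a MAP kinase phosphatase (9563 and 3824; -1.32), F3, tissue factor, which starts blood clotting (4466 and 2097; -1.09), and INHBA, the activin A subunit (2208 and 716; -1.62). On the higher side, ALDH1A3, a retinaldehyde dehydrogenase, had 1904 and 4860.5 (1.35), EPAS1, the hypoxia-inducible factor HIF-2 alpha, 633 and 1634 (1.37) and TYRP1, a melanosome enzyme, 197 and 663 (1.74). EPAS1 was higher, while 28 of 32 glycolysis and hypoxia genes were lower.

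The short RNAs of RNA polymerase III RN7SL1 (585 and 189; -1.63), RN7SL2 (289.9 and 139; -1.06) and RN7SK (113 and 40.7; -1.45) were all lower in the knockdown library. They lack a poly(A) tail and have many near copies, so their counts in such libraries are uncertain.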
